A study of Mus musculus with 25 samples.

Results

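What still differed in the wild-type mouse colon 5 days after dextran sulfate sodium (DSS) was withdrawn was measured by setting 5 day 12 arrays against 3 day 0 arrays, 8 of the 25 arrays of the study. The arrays were taken by their titles alone, so no measured value chose them. Day 12 mice were female C57BL/6J of 8 weeks that drank 2% (w/v) DSS for 7 days and then plain water for 5 days. Day 0 mice were of the same sex, strain and age and were killed before any DSS. Each array holds colon RNA labelled with Cy3 and gives 1 intensity per probe. The labels do not say which stretch of colon was taken, at what hour, or whether the mice shared cages. The other 17 arrays are WT mice at day 7, the last day of DSS, and mice labelled Card9-/- at days 0, 7 and 12.

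DSS is a sulfated polysaccharide that injures the colonic epithelium when it is drunk, and the injury draws neutrophils and other leukocytes into the mucosa. Withdrawal of DSS is followed by regrowth of the epithelium over days to weeks. The colonic lining holds absorptive colonocytes, mucus-making goblet cells, chemosensory tuft cells and hormone-making enteroendocrine cells, and it secretes antimicrobial proteins.

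A level is the log2 processed signal of a probe after subtraction of the 75th percentile of its array, so a level of 0 is that percentile. Differences are log2 differences, day 12 minus day 0, with the standard error of the limma fit. Of 25561 genes tested, 436 were called at an adjusted p under 0.05 (1.71%), of which 286 were higher at day 12 (1.12%) and 150 were lower (0.587%). At an unadjusted p under 0.05 the number was 3391. Among the called genes, 166 rises and 103 falls were larger than 1 on the log2 scale. The median difference over all genes was 0.03. The 8 values did not overlap between the groups for 284 of the 286 rises and for 149 of the 150 falls, where 16.2% of all genes had no overlap, 9.33% with day 12 above and 6.89% with day 12 below. The count depended on single arrays. It was 112 without day 0 replicate 1, 137 without day 0 replicate 2, 234 without day 0 replicate 3, 231 without day 12 replicate 2 and 250 without day 12 replicate 5. Calls that held without each of the 8 arrays in turn numbered 86, of which 54 were rises and 32 were falls. The background correction mattered as well. Of the 86 called genes that the naming rule chose, 30 were not called with normexp, another background correction, which adds an offset of 50, and 45 moved by more than 1.5-fold there, all 45 toward a smaller difference. In the table of log2 values that the authors deposited 30 of the 86 moved that far, again all to a smaller difference, and 14 were not called. Some of the 86, such as Chst5, Fcer1a and Lce3a, could not be tested in that table and are not among the 14. In the 13 WT arrays alone 42 of the 86 were not called. Of the 31 among the 86 that held without each array, Ccl3, Clec4d and Ltf were not called with normexp, Ltf not in that table, Ccl3, Khdc1a, Nos2, Prdm1 and Sh2d6 not in the 13 WT arrays, and Sh2d6 not in the 8 arrays alone.

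Day 12 replicate 5 stood apart from the others. It had 37419 probes well above background, against 27187 to 30039 on the other 7 arrays. It correlated with the other arrays at 0.937 to 0.950 over the 36427 probes kept, against 0.966 to 0.986 among the rest. Its mean over 17 pancreatic acinar genes lay 7.31 above the day 0 mean, and the 4 other day 12 arrays lay between -0.36 and 2.06. High acinar signal also occurred outside the WT arrays. Amy2a5, among these genes, was at 7.01 on WT day 12 replicate 5 and at 10.59 on day 12 replicate 1 labelled Card9-/-. The latter array enters the shared spread of the fit and the comparison in mice labelled Card9-/-. None of the 17 genes passed the test, and their median difference was 2.29, or 0.60 without WT day 12 replicate 5. Their summed linear level was 13.8 to 428 at day 12 and at most 30.3 without replicate 5, against 39.5 to 50.2 at day 0. The part of these genes in the results was not tested beyond leaving that array out, which gave 157 rises (0.614%) and 93 falls (0.364%), and 245 of these 250 were among the 436.

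**Figure D1:**
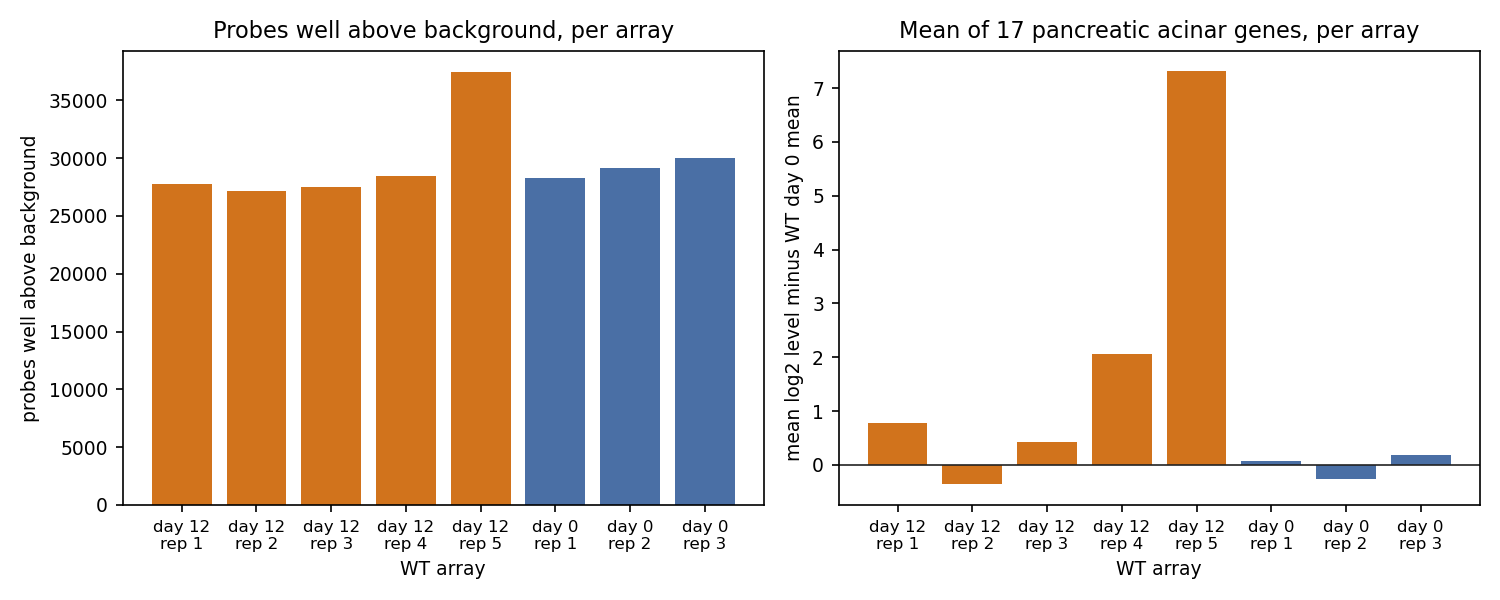
Left, the number of probes well above background on each WT array. Right, the mean log2 level of 17 pancreatic acinar genes on each array, relative to the day 0 mean. Orange bars are the 5 day 12 arrays and blue bars the 3 day 0 arrays. Day 12 replicate 5 is the highest of the 8 in both, at 37419 probes and 7.31.

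Epithelial markers were present on every array. The 13 genes of that list, such as Epcam, had summed linear levels of 2430 to 2810 at day 12 and 2430 to 2730 at day 0, and none was called. Genes of the proximal colon were on average -0.77 to 0.21 from the day 0 mean at day 12, against -0.11 to 0.17 at day 0. All 7 had a negative difference and none was called. Of 10 distal colon genes 8 had a positive difference and none was called. Their means were -0.34 to 1.00 at day 12, highest on replicate 5, and -0.16 to 0.11 at day 0. With the proximal mean as a covariate all 30 of the largest changes described next were still called, and 641 genes were called in all. The distal mean was not used as a covariate.

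S100a9 and S100a8 headed the 15 largest rises, which were in order S100a9, S100a8, Reg3b, Reg3g, Il1b, Khdc1a, Prss22, Clec4e, Il11, Cxcl5, Clec4d, Ido1, Mmp10, Acod1 and Myot. S100a9 and S100a8 encode the 2 subunits of calprotectin, the abundant calcium- and zinc-binding protein of the neutrophil cytoplasm. S100a9 had log2 levels of 2.96, 4.22, 2.73, 1.37 and 3.03 at day 12, against -3.77, -5.12 and -4.80 at day 0. S100a8 stood at 1.00, 2.34, 0.80, -0.20 and 1.03 at day 12, against -6.44, -5.39 and -7.07 at day 0. The lowest day 12 array of each gene was above the highest day 0 array by a wide margin, and replicate 4 was the lowest for both. The difference of S100a9 was 7.43 ± 0.80 (adjusted p = 2.34e-05). S100a8 was not well above background on any day 0 array, which makes it at least 157-fold higher at day 12 (difference 7.30 ± 0.83, adjusted p = 3.65e-05). A fold of this kind sets the mean of the brighter group against, on each array of the dimmer group, the gene's own signal or the lowest signal well above background, whichever is higher, and for S100a8 it equals the plain ratio of 157. As printed, it also equals the plain ratio for Ccl3, Cxcl1, Ltf, Chrm3, Chst5, Khdc1a, Myot, Fcer1a and Aqp7. For these genes it is no more cautious than that ratio. Such a fold is a bound under this background correction alone: with normexp S100a8 differed by 3.93 (adjusted p = 0.00589). In whole tissue, more cells of a type and more RNA per cell cannot be told apart.

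Of 23 neutrophil genes tested, 8 rose and none fell, with a median of 1.80 against 0.03 over all genes. S100a8, S100a9, Clec4d and Ltf kept the call without each of the 8 arrays in turn. With normexp S100a8 and S100a9 were still called, while Clec4d differed by 1.84 (adjusted p = 0.102), Ltf by 1.14 (adjusted p = 0.141), and the other 4 missed the threshold too (adjusted p of 0.153 to 0.25). Clec4d, a C-type lectin receptor of myeloid cells that signals through CARD9, was at least 25.5-fold higher (adjusted p = 0.00132). Clec4e (Mincle), its partner receptor for mycobacterial and fungal glycolipids, was at least 28.0-fold higher (adjusted p = 0.0125), but missed the threshold whichever of the 3 day 0 arrays was left out (adjusted p up to 0.0696). Ltf, which encodes the iron-binding lactoferrin of neutrophil granules, was at least 12.6-fold higher (adjusted p = 0.000941). Retnlg and Hdc rose by 3.08 ± 0.61 and 3.04 ± 0.72. The call of Retnlg ended without day 0 replicate 1 (adjusted p = 0.118), and that of Hdc ended when any 1 of 5 arrays was left out (adjusted p up to 0.171). Il1r2, the decoy receptor of interleukin 1, rose by 2.53 and also missed the threshold without day 0 replicate 1 (adjusted p = 0.144). The granule genes Elane and Camp differed by -0.14 and -0.28, and neither passed the test. The summed linear level of the whole list was 109 to 147 at day 12 and 110 to 133 at day 0, ranges that overlap.

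**Figure D2:**
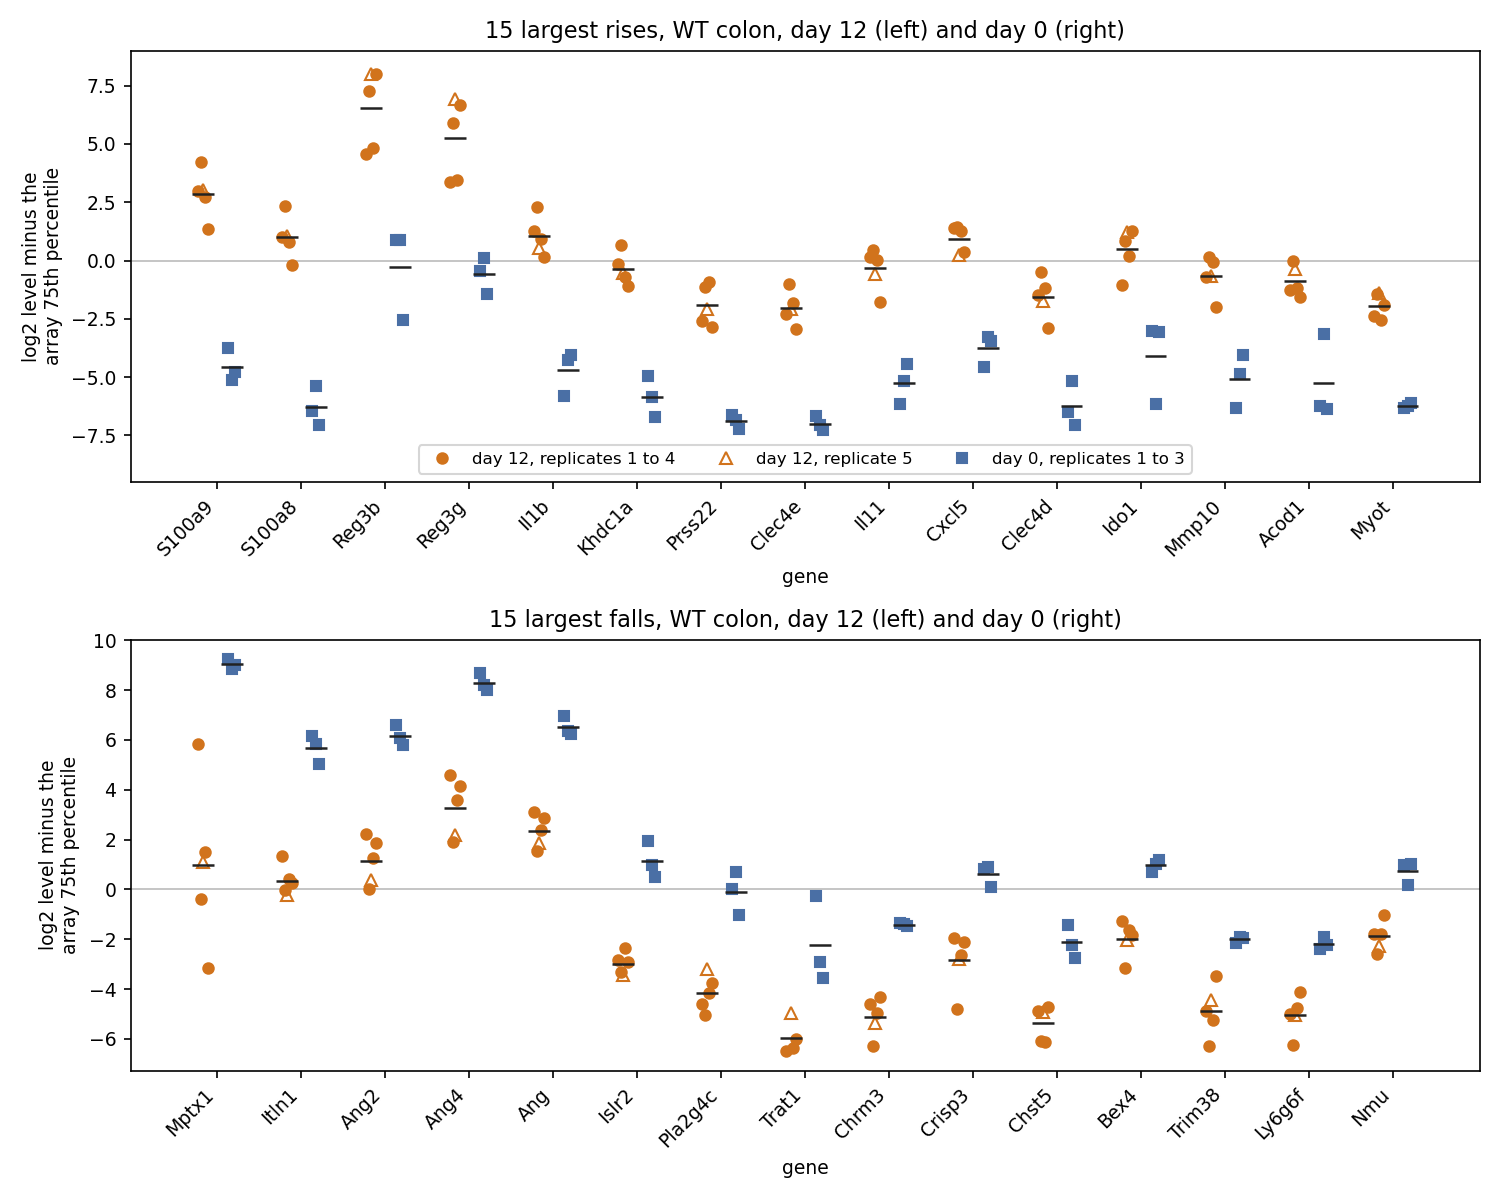
Log2 level of the 15 largest rises (top) and the 15 largest falls (bottom) on each WT array, with day 12 in orange on the left of each gene and day 0 in blue on the right. Horizontal bars are group means and the open triangle is day 12 replicate 5. Genes were picked for this plot only if their groups did not overlap, so the separation is part of the choice.

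Cytokines and chemokines rose beside them. Il1b, the secreted form of interleukin 1 made by activated myeloid cells, was at 1.27, 2.32, 0.91, 0.17 and 0.53 at day 12, against -5.83, -4.26 and -4.05 at day 0. That is a difference of 5.75 ± 0.81 (adjusted p = 0.000435), and it held without each of the 8 arrays. Cxcl5, a chemokine that binds the neutrophil receptor CXCR2, differed by 4.71 ± 0.59 (adjusted p = 0.000128) and held in the same way. Il11, an IL-6 family cytokine made by stromal cells, ran from -1.77 to 0.46 at day 12, against -6.16 to -4.44 at day 0. Its adjusted p of 0.00835 became 0.0799 without day 0 replicate 1. The list of 28 inflammatory cytokines and chemokines had 7 rises, no fall and a median of 2.22, and 4 of its members passed without day 12 replicate 5. Ccl3, a chemokine of monocytes and lymphocytes, was at least 15.5-fold higher (adjusted p = 0.007), but with normexp it differed by 1.18 and was not called (adjusted p = 0.323). Cxcl1, also a ligand of CXCR2, was at least 6.66-fold higher, with an adjusted p of 0.0399, and it lost its call whichever of the 8 arrays was left out (adjusted p up to 0.155). Ccl4 and Ccl8, chemokines of the same family as Ccl3, rose by 2.94 and 2.88, and neither was called without replicate 5 (adjusted p = 0.0931 and 0.0552). Ccl4 lost its call whichever of the 8 arrays was left out (adjusted p up to 0.189), and Ccl8 when any 1 of 4 was (adjusted p up to 0.192). Il11, Cxcl1 and Ccl4 were not called with normexp either (adjusted p of 0.11 to 0.446).

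Socs3, the feedback inhibitor that STAT3 signalling switches on, was at 3.13, 3.39, 2.84, 2.92 and 3.35 at day 12. At day 0 it was at 0.55, 0.81 and 0.47. Every day 12 array lay above every day 0 array, and the difference of 2.52 ± 0.45 (adjusted p = 0.00513) held without each array. Stat3 itself differed by 0.70 ± 0.18 (adjusted p = 0.0459), and this was lost when any 1 of 7 arrays was left out, day 12 replicate 5 among them (adjusted p = 0.0985 there and 0.168 at most). Socs3 and Stat3 were the members called among 13 genes downstream or upstream of IL-22 and IL-17, whose median was 0.24. Lrg1, a secreted glycoprotein of the acute phase, differed by 3.83 ± 0.43 (adjusted p = 2.81e-05). Lrg1, Saa3 and Steap4 were the called members of 24 acute phase and complement genes, whose median was 0.69, and Lrg1 was the member that kept its call without each array. Saa3, a serum amyloid A made in the gut wall, rose by 3.46, or an adjusted p of 0.0742 without replicate 5. Its call ended when any 1 of 7 arrays was left out (adjusted p up to 0.197). Steap4, a metalloreductase, rose by 2.37 (adjusted p up to 0.229 with 1 array left out). With normexp neither Saa3 nor Steap4 was called (adjusted p = 0.0924 and 0.0959).

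Among genes of epithelial defence, those called at day 12 went both ways: of 30 tested, 7 rose and 4 fell. Reg3b and Reg3g are secreted C-type lectins that bind or kill bacteria, and both enterocytes and the injured pancreas make them. Reg3b was at 4.56, 7.27, 4.83, 7.99 and 8.01 at day 12, against 0.86, 0.87 and -2.55 at day 0. Reg3g was at 3.35, 5.90, 3.47, 6.67 and 6.93 at day 12, against -0.47, 0.10 and -1.42 at day 0. Replicates 2, 4 and 5 were the high ones for both genes. Replicates 4 and 5 were also the highest for the acinar genes, while replicate 2 was the lowest for them, at -0.36. A pancreatic source of the Reg3b and Reg3g signal was not tested. The Reg3b difference was 6.81 ± 1.58 (adjusted p = 0.0285) and became 6.44 (adjusted p = 0.0742) without replicate 5. For Reg3g it was 5.86 ± 1.36 (adjusted p = 0.0283), or 5.44 without replicate 5 (adjusted p = 0.075). The calls of both genes also ended when any 1 of the 3 day 0 arrays or day 12 replicate 2 or 4 was left out (adjusted p up to 0.158). Nos2, the inducible nitric oxide synthase, differed by 3.50 ± 0.60 (adjusted p = 0.0036) and held without each array. Fut2, which puts fucose on epithelial glycans, was at 1.59 to 2.16 at day 12 and 0.76 to 0.81 at day 0 (adjusted p = 0.00513), and held as well. Without replicate 5 the list had 4 rises and 4 falls.

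The falls on the same list were angiogenins and intelectin. The angiogenins are small secreted ribonucleases, and mouse Ang4 is a microbicidal protein of Paneth and goblet cells. Intelectin 1, encoded by Itln1, is a secreted lectin that binds microbial glycans. Ang4 was at 4.57, 1.90, 3.58, 4.16 and 2.17 at day 12, against 8.68, 8.20 and 7.99 at day 0. Itln1 was at 1.35, -0.03, 0.43, 0.24 and -0.22 at day 12. At day 0 it was at 6.17, 5.83 and 5.03. No day 12 array of either gene came within 3 log2 units of the lowest day 0 array. Ang4 differed by -5.01 ± 0.59 and was 32.3-fold lower at day 12 (adjusted p = 4.77e-05). The Itln1 difference was -5.32 ± 0.59 (adjusted p = 2.75e-05), and its 3 probes gave -5.32 to -5.54. The reported Itln1 probe shares a run of 17 bases with the probe of Itlnb, and binding of Itlnb transcripts to it was not tested. Ang2 fell by 5.01 (adjusted p = 8.55e-06) and Ang by 4.18 (adjusted p = 3.25e-06). These 4 falls held without each of the 8 arrays.

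Since the angiogenins are close copies of each other on chromosome 14, the 60-base probes behind these values are shown with that of Mptx1, the deepest fall, as the array file gives them. Capitals mark the longest run that the Ang and Ang2 probes share, which is 8 bases. The Ang4 probe shares at most 7 bases in a row with either. Positions are those of the file, on mm9.
Ang, chr14:51721338-51721397, plus strand: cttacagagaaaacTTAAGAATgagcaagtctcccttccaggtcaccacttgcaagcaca
Ang2, chr14:51815315-51815374, minus strand: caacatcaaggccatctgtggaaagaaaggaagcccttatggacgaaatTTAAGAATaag
Ang4, chr14:52384066-52384125, minus strand: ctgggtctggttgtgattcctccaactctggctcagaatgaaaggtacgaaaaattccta
Mptx1, chr1:176262673-176262732, plus strand: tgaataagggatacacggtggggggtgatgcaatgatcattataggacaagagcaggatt
Transcripts of the other copies may still bind to each probe, so the 3 angiogenin values may not be independent. Such binding was not tested.

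Mptx1, a mucosal pentraxin of the intestinal epithelium, had the deepest fall. It was at 5.82, -0.39, 1.50, -3.16 and 1.10 at day 12, against 9.24, 8.86 and 9.02 at day 0. The day 12 arrays were far apart from each other, with replicate 1 highest and replicate 4 lowest, while the day 0 arrays lay close together. The difference was -8.07 ± 1.60 (adjusted p = 0.0108). It passed without day 12 replicate 5 (-8.10, adjusted p = 0.0255), but not without day 0 replicate 1 or 2 (adjusted p up to 0.0675). A second Mptx1 probe gave -8.96.

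The remaining large falls had varied roles. Islr2, a leucine-rich repeat protein of neurons, fell by 4.11 (SE 0.42, adjusted p = 1.4e-05). Chrm3, the M3 muscarinic acetylcholine receptor of epithelium and smooth muscle, was not well above background on any day 12 array, against all 3 at day 0, and was at least 12.9-fold lower (adjusted p = 0.000159). Nmu, the neuropeptide neuromedin U, fell by 2.61 (SE 0.45, adjusted p = 0.00342). Bex4 fell by 2.97 (adjusted p = 0.000557). Islr2, Chrm3, Nmu and Bex4 held without each array, as did 8 of the 15 largest falls in all. Trat1, an adaptor of T cell receptor signalling, fell by 3.72 (adjusted p = 0.0266) in a fit that lacks day 12 replicate 2, whose spot was an outlier, and its call ended when any 1 of 5 arrays was left out (adjusted p up to 0.221). Pla2g4c, Crisp3, Trim38 and Ly6g6f fell by 4.04, 3.46, 2.85 and 2.85, and each lost its call without day 0 replicate 2. Pla2g4c, Crisp3 and Trim38 also lost it without day 0 replicate 1. The highest adjusted p was 0.0785, for Crisp3 without day 0 replicate 1. Chst5, an N-acetylglucosamine sulfotransferase of the intestine, was at least 9.32-fold lower (adjusted p = 0.0228), and its call ended without day 0 replicate 1 or 2 or day 12 replicate 2 or 3 (adjusted p up to 0.159). Trat1, Trim38, Ly6g6f and Chst5 were not called with normexp (adjusted p of 0.0542 to 0.215), where Chrm3 still was, at a smaller difference of -1.51.

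Among the other large rises, 3 were of genes with no day 0 array well above background, and the 3 held without each array. Khdc1a, a KH domain gene, was at least 44.7-fold higher (adjusted p = 0.00316). Prss22, a serine protease of airway and gut epithelium, was at least 29.7-fold higher (adjusted p = 0.00053). Myot, which encodes the muscle protein myotilin, was at least 19.4-fold higher, while none of 8 skeletal muscle genes was called and their median was -0.10. With normexp the differences were 2.67 for Khdc1a, 1.76 for Prss22 and 1.49 for Myot, and the 3 were called.

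Goblet cell genes had no call. Of 25 tested, 12 had a positive difference and their median was -0.02. Muc2, the gel-forming mucin, differed by -0.28 and Zg16 by 0.19. Fcgbp, a protein of the mucus layer, had levels of 8.13 to 8.93 at day 12 and 9.23 to 9.47 at day 0, with an adjusted p of 0.0853, while a second probe of it gave -1.56 (adjusted p = 0.0175 over all probes).

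Tuft cell genes were lower as a list. All 20 tested members had a negative difference, the median was -1.22, and 7 fell past the threshold. Bmx, a Tec family kinase, was at -1.07, -1.51, -1.12, -0.75 and -1.32 at day 12, against 0.25, 0.20 and -0.01 at day 0. It differed by -1.30 ± 0.17 (adjusted p = 0.000163). Bmx and Sh2d6 (-1.34 ± 0.26) held without each array. Alox5, the 5-lipoxygenase that starts leukotriene synthesis, fell by 2.23 (adjusted p = 0.007) and reached 0.0501 without day 0 replicate 2. Dclk1, the kinase used as a tuft cell marker, was at -3.61 to -1.67 at day 12 and -0.86 to -0.59 at day 0 (adjusted p = 0.0283). Its 2 other probes gave -0.75 and -0.81, and neither passed. The call of Dclk1 ended when any 1 of the day 0 arrays or day 12 replicate 2 or 3 was left out (adjusted p up to 0.14). Pou2f3, the transcription factor that specifies tuft cells, differed by -0.33 and was not called. Gfi1b, Avil and Il17rb fell by 1.89, 0.97 and 1.67, and each lost its call when any 1 of 4 or more arrays was left out (adjusted p up to 0.178). Without replicate 5, 6 members were called. With normexp Dclk1, Gfi1b, Avil and Il17rb were not (adjusted p of 0.142 to 0.535).

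Mast cell genes rose. Mcpt1, Mcpt2 and Mcpt4 encode chymase-type proteases of mast cell granules, of which the first pair mark mast cells of the mucosa and Mcpt4 those of connective tissue. Mcpt4 was at 1.49, 1.44, 1.65, 1.88 and 1.73 at day 12, against -2.18, -1.93 and -1.66 at day 0, a difference of 3.56 ± 0.35 (adjusted p = 8.55e-06). The 5 day 12 arrays lay close together and far above the 3 day 0 arrays. Mcpt1 differed by 3.76 ± 0.46 (adjusted p = 9.7e-05) and Mcpt2 by 3.82 ± 0.50 (adjusted p = 0.000172). The 3 genes held without each array, although they are close copies and their probes may read each other. Of 10 mast cell genes tested 6 rose, with a median of 2.62, and 4 passed without replicate 5. The summed linear level of the list reached 13.3 at day 12, against 5.90 to 6.72 at day 0, and every day 12 sum was above every day 0 sum. Cpa3, the mast cell carboxypeptidase, rose by 2.75 but lost its call when any 1 of 6 arrays was left out (adjusted p up to 0.269), and its groups overlapped. Fcer1a, the alpha chain of the high-affinity IgE receptor, was well above background on 2 of 5 day 12 arrays and no day 0 array and was at least 5.61-fold higher (adjusted p = 0.0119, or 0.0696 at most with 1 array left out). Neither Cpa3 nor Fcer1a was called with normexp (adjusted p = 0.307 and 0.384). Kit, the receptor for stem cell factor, differed by -0.42 and Tpsb2 by -0.07, and neither was called.

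**Figure D3:**
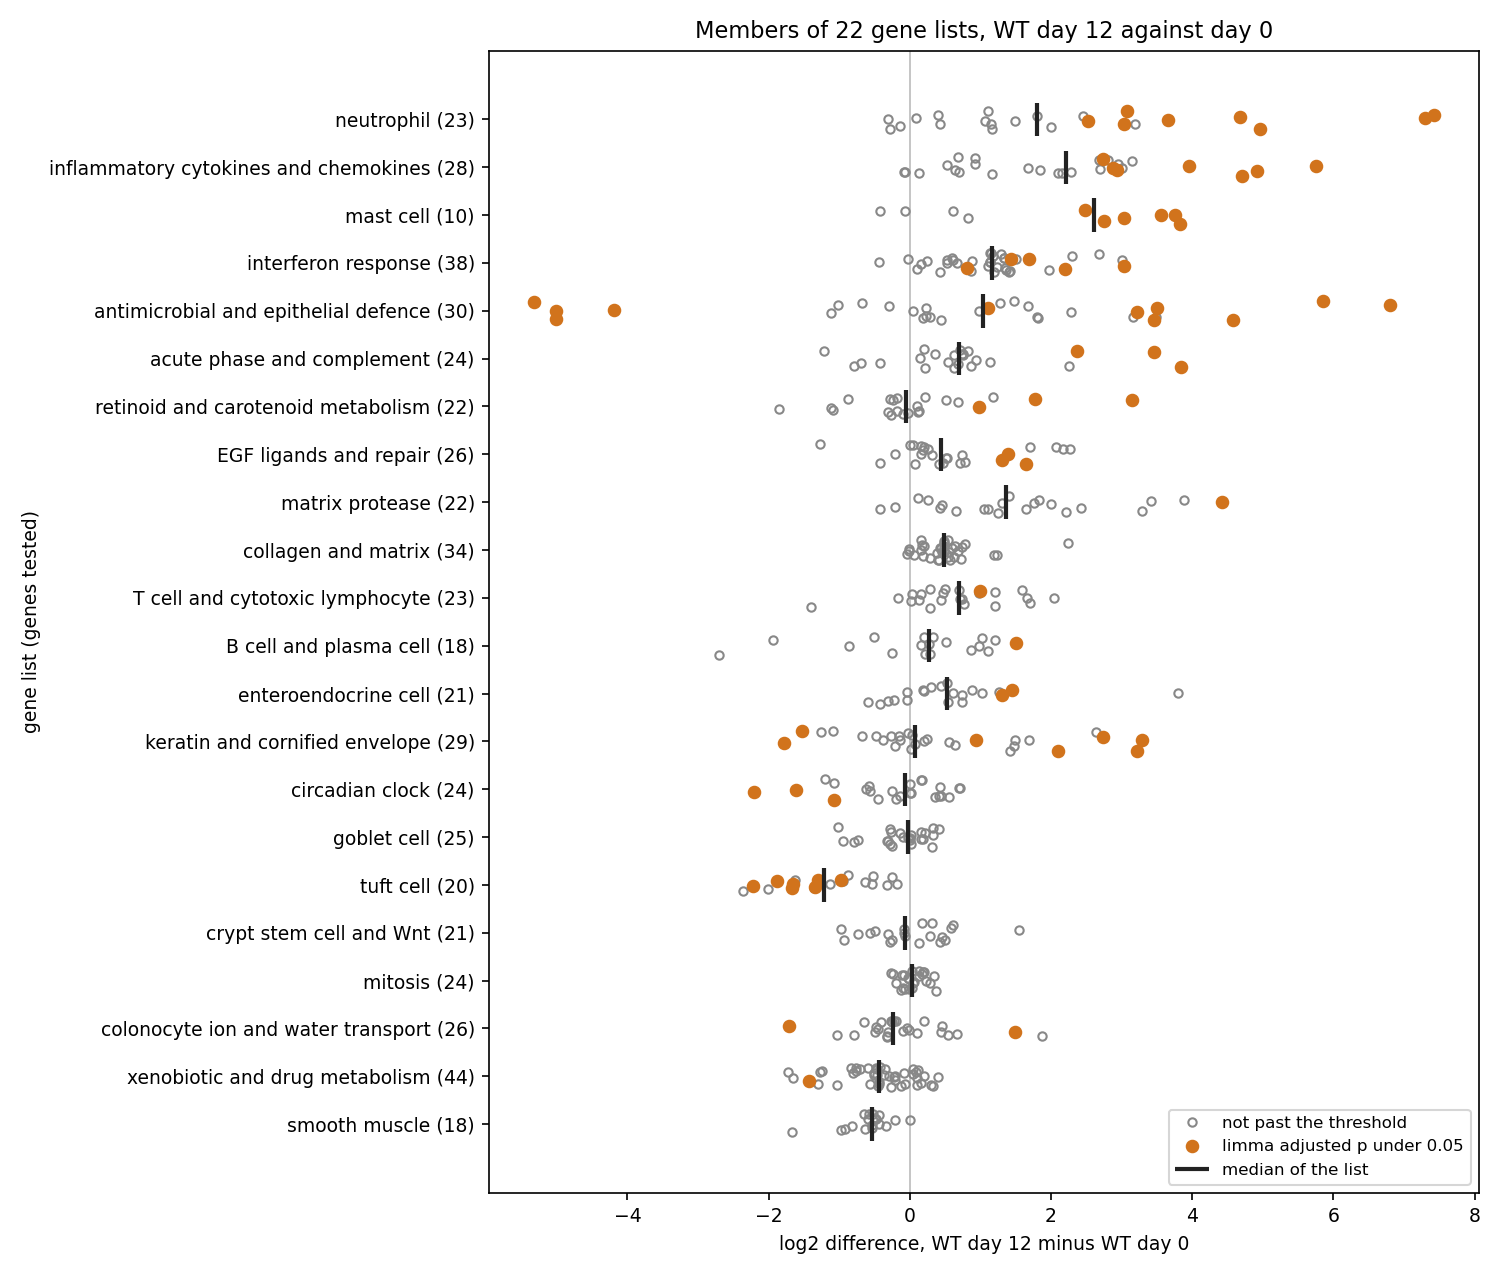
Log2 difference, day 12 minus day 0, of every tested member of 22 gene lists in WT colon. Filled points have an adjusted p under 0.05, open points do not, and the bar is the median of the list. The neutrophil, cytokine and mast cell lists have medians of 1.80, 2.22 and 2.62, the tuft cell list has -1.22, and no goblet, stem cell, mitosis or smooth muscle gene is filled.

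Of 38 interferon-response genes 5 rose and 36 had a positive difference, with a median of 1.16. Ifit2, an RNA-binding protein that interferons induce, was at -0.10, 0.75, 0.54, 0.60 and 0.33 at day 12, against -2.42, -2.34 and -3.09 at day 0. It differed by 3.04 ± 0.61 (adjusted p = 0.0109). Ifi47, a GTPase induced by interferon gamma, differed by 2.20 ± 0.43 (adjusted p = 0.00911), Mx2 by 1.68 ± 0.33 and Oasl1 by 0.80 ± 0.15. The 5 genes, Ifit1 among them, were also called without replicate 5, but each of them missed the threshold without at least 1 day 0 array, namely replicate 2 for Oasl1 (adjusted p = 0.0513) and Ifi47 (0.0871), replicate 3 for Ifit1 (0.0586), replicate 1 or 3 for Ifit2 (up to 0.0633) and replicate 1 or 2 for Mx2 (up to 0.0708, and 0.0645 with normexp). Ido1, which an interferon can also induce and which breaks tryptophan down to kynurenine, was at -1.03, 0.82, 0.20, 1.26 and 1.21 at day 12. At day 0 it was at -3.02, -6.17 and -3.07, a difference of 4.58 ± 0.80 (adjusted p = 0.0038). That adjusted p was 0.0506 without day 0 replicate 2. Ido1 was the member called of 17 genes of tryptophan and serotonin metabolism, and none of 11 targets of the aryl hydrocarbon receptor was called.

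Retinoid genes rose in part. Aldh1a3, which makes retinoic acid from retinal, was at 0.03, 1.54, 0.20, -0.45 and 0.47 at day 12, against -3.24, -2.43 and -2.69 at day 0. Its difference of 3.14 ± 0.53 (adjusted p = 0.00287) held without each array. Dhrs9 and Rdh10, which turn retinol into retinal, rose by 1.78 and 0.98, while the median of the 22 genes was -0.06. The calls of Dhrs9 and Rdh10 both ended when any 1 of the 3 day 0 arrays or day 12 replicate 2 was left out, and that of Dhrs9 also without day 12 replicate 1, 4 or 5 (adjusted p up to 0.155). Lrat, which stores retinol as its ester, differed by -1.85 without a call.

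Repair ligands and epithelial barrier genes also moved. Hbegf and Areg, ligands of the EGF receptor, differed by 1.31 ± 0.29 (adjusted p = 0.0199) and 1.40 ± 0.34 (adjusted p = 0.0368). Ly6a (Sca-1), a surface protein of regenerating colonic epithelium that lymphocytes and endothelium carry too, was at 5.92 to 6.71 at day 12 and 4.56 to 4.86 at day 0 (adjusted p = 0.0248). They were the 3 called of 26 genes, and 1 was called without replicate 5. None of the 3 held without each array (adjusted p up to 0.177), and Areg was not called with normexp (adjusted p = 0.0511). Of 29 keratin and cornified envelope genes, 5 rose and 2 fell. Sprr2h, a small proline-rich protein, differed by 3.22 ± 0.56 (adjusted p = 0.00378), or an adjusted p of 0.0585 without day 0 replicate 1. Gsdmc3 and Gsdmc4, gasdermins of the colonic epithelium with near-identical copies, fell by 1.78 and 1.52. Gsdmc3 held without each array, and Gsdmc4 missed the threshold without day 0 replicate 1 or 2 (adjusted p up to 0.109). Krt36, Lce3a, Lce3b and Sfn rose by 2.10, 2.74, 3.29 and 0.94, and none of the 4 was called without replicate 5 (adjusted p of 0.0536 to 0.0891). Krt36 lost its call whichever of the 8 arrays was left out, and each of the others when any 1 of 4 or more was (adjusted p up to 0.161). With normexp Krt36 and Lce3a were not called (adjusted p = 0.0655 and 0.617). The fit of Lce3a lacks day 12 replicate 1, whose spot was an outlier.

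Transport and hormone genes had few calls. Slc16a3 (MCT4), which exports lactate, was at 2.93, 3.62, 2.96, 2.93 and 3.08 at day 12, against 0.96, 1.00 and 1.42 at day 0. It differed by 1.98 ± 0.30 (adjusted p = 0.00126) and held without each array, while the other 17 genes of monocarboxylate and nutrient transport had no call. Scnn1b, the beta subunit of the epithelial sodium channel, rose by 1.49 (adjusted p = 0.0118, or 0.104 at most when 1 array was left out). Cck and Neurod1 were the called members of 21 enteroendocrine genes and rose by 1.44 and 1.31, and neither was called without replicate 5 (adjusted p = 0.0742 and 0.0716). The call of Cck ended when any 1 of 5 arrays was left out (adjusted p up to 0.195), and that of Neurod1 with any 1 of 7 (adjusted p up to 0.178). Aqp7, an aquaglyceroporin, was not well above background on any day 12 array and was at least 3.26-fold lower (adjusted p = 0.0444), and it lost its call whichever of the 8 arrays was left out (adjusted p up to 0.295). Il4ra, the IL-4 receptor alpha chain, differed by 1.79 ± 0.30 (adjusted p = 0.00287) on the reported probe and by 0.74 (adjusted p = 0.165 over all probes) on a second one. Il1rl1, which encodes the IL-33 receptor ST2, rose by 3.44 (adjusted p = 0.0367, or 0.292 at most with 1 array left out). Its other probes gave 2.48 and 0.30 (adjusted p = 0.0354 and 0.854 over all probes). Neurod1, Aqp7 and Il1rl1 were not called with normexp (adjusted p = 0.432, 0.881 and 0.0719).

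Lymphocyte and macrophage genes were called singly. Cd3d, a chain of the T cell receptor complex, was the 1 called of 23 T cell genes, with a difference of 1.00 and no call whichever of the 8 arrays was left out (adjusted p up to 0.169). Prdm1 (Blimp-1), a factor of plasma cells and of maturing enterocytes, differed by 1.51 ± 0.28 (adjusted p = 0.0065) and was the 1 called of 18 B cell and plasma cell genes. Arg1 and Acod1, enzymes of activated macrophages, were the 2 called of 23 macrophage and monocyte genes, at 3.31 ± 0.68 and 4.37 ± 0.99. Without replicate 5, Acod1 had an adjusted p of 0.0605, and without day 0 replicate 1 the values were 0.141 for Arg1 and 0.17 for Acod1. Mmp10, a stromelysin, was the 1 called of 22 matrix protease genes (4.42 ± 0.99, adjusted p = 0.0241), and its adjusted p was 0.051 without replicate 5 and 0.178 at most with 1 array left out. The matrix protease median was 1.36, and the 34 collagen and matrix genes had a median of 0.48 and no call. With normexp Cd3d, Acod1 and Mmp10 were not called (adjusted p = 0.0626, 0.154 and 0.239).

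Single falls came from 3 metabolic lists, of 24 cholesterol synthesis, 21 fatty acid synthesis and storage and 44 drug metabolism genes. Among all genes 0.587% fell. Cyp51, an enzyme of cholesterol synthesis, fell by 0.50, Gpam, which starts triglyceride synthesis, by 0.87 and Ugt2b35, a glucuronosyltransferase, by 1.42. None of the 3 held without each array (adjusted p of 0.249, 0.227 and 0.141 at most), and with normexp Cyp51 and Gpam were not called (adjusted p = 0.117 and 0.299).

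Proliferation, stemness and junction genes gave no call at day 12. That holds for 24 mitosis genes (median 0.03), 28 DNA replication genes (-0.10), 21 crypt stem cell and Wnt genes (-0.06) and 17 tight junction genes (0.06). It holds also for 31 genes of oxidative phosphorylation (-0.10), 18 of smooth muscle (-0.54), 11 of MHC class II presentation (0.43) and 14 of adipocytes (-0.82). Smooth muscle genes had summed linear levels of 166 to 297 at day 12 and 212 to 437 at day 0. Adipocyte genes had 29.8 to 67.0 at day 12 and 49.8 to 108 at day 0.

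Clock output genes were lower at day 12. Nr1d1 and Nr1d2 encode the REV-ERB repressors of the circadian clock, and Dbp encodes a transcription factor driven by it. Dbp was at 0.63, 1.37, -0.42, 0.71 and 0.26 at day 12, against 3.22, 3.31 and 1.63 at day 0. Nr1d1 was at -0.20, -0.31, -1.33, -1.25 and -0.73 at day 12, against 1.37, 0.92 and 0.27 at day 0. For both genes day 0 replicate 3 was the lowest of its group and still above every day 12 array. The differences were -2.21 ± 0.52 for Dbp (adjusted p = 0.0311), -1.62 ± 0.31 for Nr1d1 (adjusted p = 0.00804) and -1.07 ± 0.21 for Nr1d2 (adjusted p = 0.0105). These were the 3 called of 24 clock genes, whose median was -0.07. Dbp was not called without replicate 5 (adjusted p = 0.0742), and each of the 3 missed the threshold without day 0 replicate 1 or 2 (adjusted p up to 0.201). The core activators Arntl and Clock differed by 0.18 and 0.35, without a call.

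Day 7 values were set beside those of day 12. The day 7 and day 12 comparisons share the day 0 arrays, so their values are given side by side, and day 12 against day 7 has its own test. Against day 0, 2.01% of all genes were higher at day 7 and 2.31% were lower. At day 12 against day 7, 0.364% were higher and 0.121% were lower. Mean levels of S100a8 were -6.30 at day 0, 1.36 at day 7 and 0.99 at day 12. Those of Ang4 were 8.29, 1.83 and 3.28 on the same days. Neither S100a8 nor Ang4 passed the test between day 12 and day 7 (adjusted p = 0.872 and 0.217). Mcpt4 had means of -1.92, -0.03 and 1.64 at days 0, 7 and 12, and Mcpt1 had -2.36, -0.67 and 1.40. Against day 7, Mcpt4 was higher at day 12 by 1.67 (adjusted p = 0.0166) and Mcpt1 by 2.07 (adjusted p = 0.0259).

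Slc16a3 had means of 1.13 at day 0 and 1.47 at day 7, and was higher at day 12 than at day 7 by 1.63 (adjusted p = 0.00798). Lce3b, a protein of the cornified envelope, was at -4.39, -4.80 and -1.11 (day 12 minus day 7 of 3.69, adjusted p = 0.0131). Oasl1 had means of 3.69 at day 0 and 3.39 at day 7, with a day 12 minus day 7 difference of 1.11 (adjusted p = 0.00117). The clock genes were lower at day 12 than at day 7. Dbp was at 2.72, 3.46 and 0.51 and fell by 2.95 between day 7 and day 12 (adjusted p = 0.00675). Nr1d1 fell by 1.33 (adjusted p = 0.0304) and Nr1d2 by 1.18 (adjusted p = 0.00675) over the same days. Mptx1 was at 9.04, 4.58 and 0.98, and the last step did not pass (adjusted p = 0.26).

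**Figure D4:**
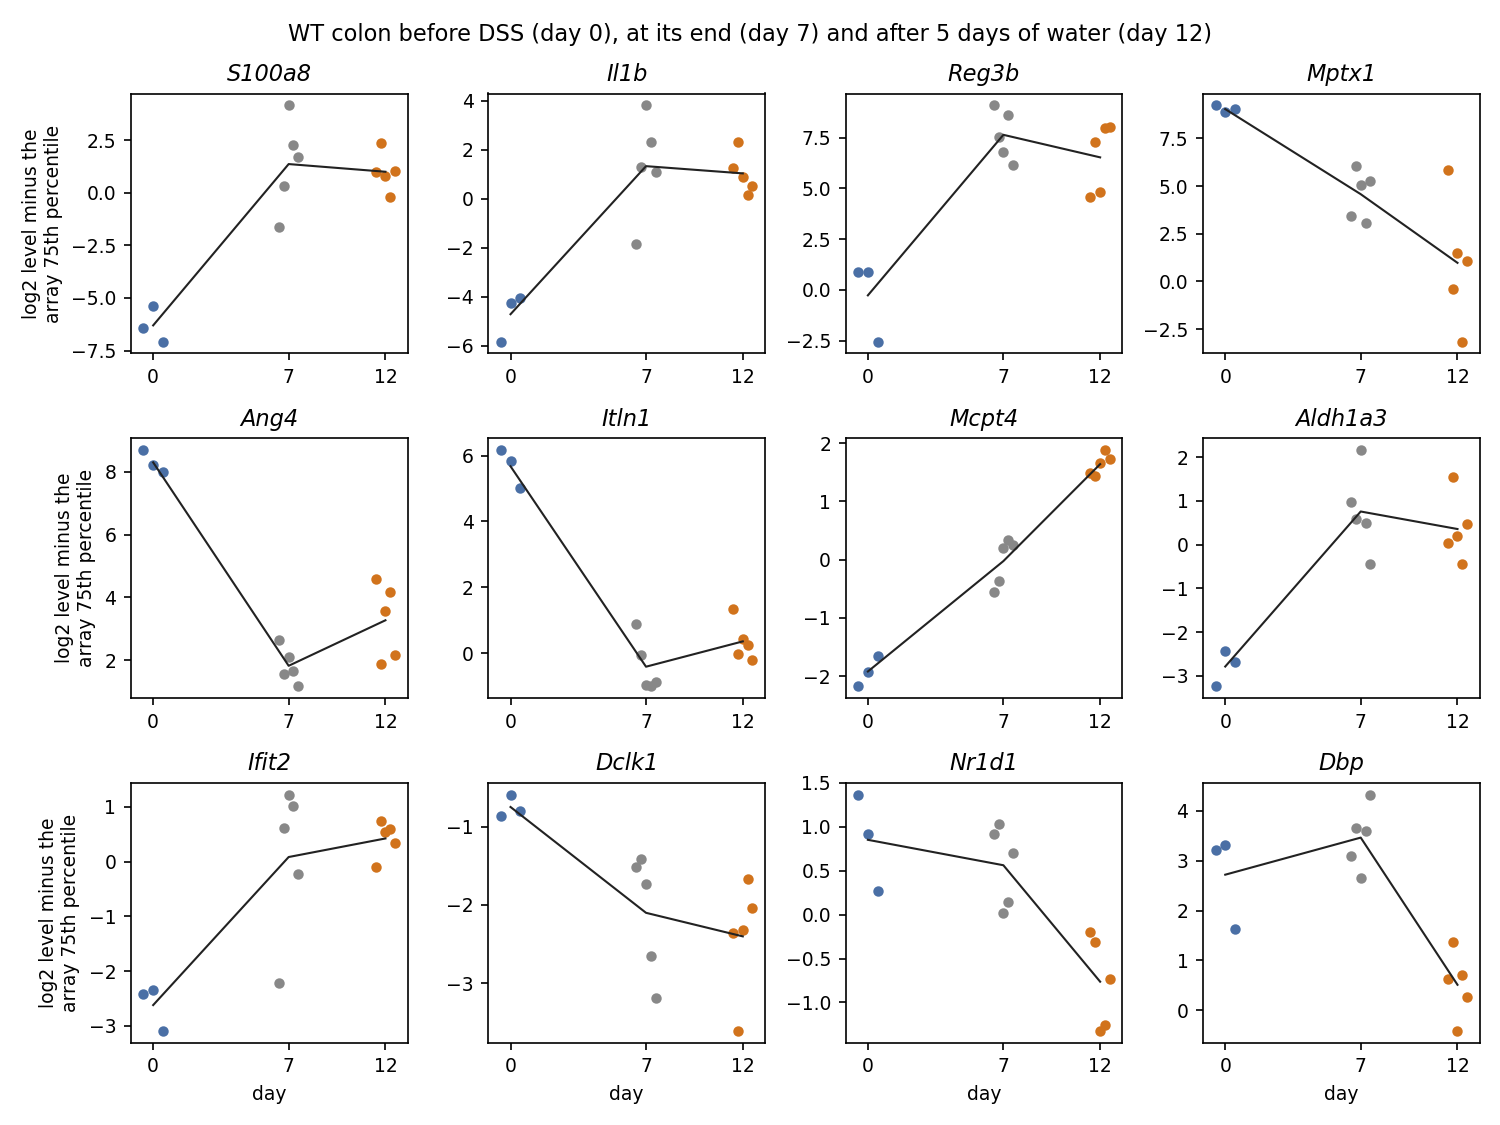
Log2 level of 12 genes in WT colon on days 0 (3 arrays), 7 (5 arrays) and 12 (5 arrays), with a line through the group means. S100a8 has means of 1.36 at day 7 and 0.99 at day 12, Mcpt4 is higher at day 12 than at day 7 by 1.67, and the 5 day 12 values of Dbp and of Nr1d1 lie below all values of the other days.

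The same comparison in mice labelled Card9-/- shares no array with the WT one. Card9 encodes an adaptor that C-type lectin receptors signal through, and its probe went against these labels. It was at -1.35 to -0.72 on the day 12 arrays and -1.52 to -0.72 on the day 0 arrays labelled Card9-/-, against -6.84 to -2.93 and -6.60 to -5.74 on those labelled WT. The labels do not say whether this probe lies in the deleted part, so each genotype named here is that of the label, and a direction between genotypes rests on those labels. Between the days, Card9 was not called in the arrays labelled WT (0.31, adjusted p = 0.892), where it was not well above background on any day 0 array, nor on any day 12 array other than replicate 5.

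In the arrays labelled Card9-/-, 943 genes were higher at day 12 (3.69%) and 828 were lower (3.24%). Of the 286 WT rises 155 were among them, which is 54.2% of the WT list and 16.4% of the Card9-/- list. Of the 150 WT falls 82 were, which is 54.7% and 9.9%. The interaction of genotype and day was called for 1 of 25561 genes (0.00391%), and 1743 had an unadjusted p below 0.05. Proximal colon genes stood, against the WT day 0 mean, at -0.58 to -0.06 on the day 12 arrays and 0.06 to 1.55 on the day 0 arrays labelled Card9-/-.

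The called gene was Ifit1, which binds viral RNA with foreign 5′ ends. Its WT levels were 0.59, 0.65, 1.06, 1.33 and 0.36 at day 12, against -0.55, -0.30 and -1.05 at day 0. In the arrays labelled Card9-/- it was at -0.90, -1.41, -1.40, -0.56 and -0.81 at day 12, against 0.16, 0.38 and 0.22 at day 0. The groups did not overlap in either genotype and moved in opposite directions, by 1.43 ± 0.27 in WT and -1.27 ± 0.27 in Card9-/-. The difference of the differences was 2.70 ± 0.38 (adjusted p = 0.0156). It was 2.52 with the proximal colon covariate (adjusted p = 0.0703), 2.55 with the slide as a block (adjusted p = 0.124), 2.74 without WT day 0 replicate 1 (adjusted p = 0.0644) and 2.49 without WT day 0 replicate 3 (adjusted p = 0.0625).

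The promoter of Ifit1 is shown because it was the gene with a called difference between genotypes. It is RefSeq sequence of GRCm38.p6, chr19:34640639-34640938, plus strand, from 250 bases before the transcript start to 50 after it. Capitals mark matches to the core of the interferon-stimulated response element, searched on both strands as GAAA, any 2 bases and GAAA again. Both matches read on the minus strand, and they do not overlap.
Ifit1 promoter: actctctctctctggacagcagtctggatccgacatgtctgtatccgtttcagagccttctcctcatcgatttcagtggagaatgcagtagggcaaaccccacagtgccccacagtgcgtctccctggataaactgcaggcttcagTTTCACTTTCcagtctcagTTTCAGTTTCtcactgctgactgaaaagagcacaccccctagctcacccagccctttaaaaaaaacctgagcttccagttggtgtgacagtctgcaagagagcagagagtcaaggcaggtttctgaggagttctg
The same letters occur in 3.44% of the 32851 promoters of the table. Of the other called interferon-response genes, the windows of Ifit2, Ifi47 and Oasl1 did not hold them, and Mx2 was not matched to the table. Ifit3b and Oas3, looked up after their values were seen, rose by 0.97 and 1.43 in WT (adjusted p = 0.0459 and 0.0269), and their windows held 2 matches and 1 match. Windows of the clock genes Dbp, Nr1d1 and Nr1d2 were searched for the E-box CACGTG and the D-box TTATGNAA, with N any base. They held neither, and these letters occur in 7.15% and 3.38% of promoters.

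The other 4 WT interferon-response rises did not pass the test of a difference between genotypes. Ifit2 changed by 0.98 ± 0.61 in the arrays labelled Card9-/-, Mx2 by -0.80 ± 0.33, Ifi47 by -0.66 ± 0.43 and Oasl1 by -0.47 ± 0.15. The adjusted p of the difference from WT was 0.0712 for Oasl1 and 0.127 to 0.677 for the other 3. Of the 38 interferon-response genes none rose and 2 fell in the arrays labelled Card9-/-, where 3.69% of all genes rose and 3.24% fell. Ido1 was at -2.83 to -1.06 at day 12 and -2.34 to -0.97 at day 0 there, a change of -0.36 ± 0.80 beside 4.58 ± 0.80 in WT, with an adjusted p of 0.435 for the difference. Reg3b changed by 2.29 ± 1.58 beside 6.81 ± 1.58 in WT (adjusted p = 0.741 for the difference). S100a8, Il1b and Mcpt4 rose in those arrays too, by 8.93 ± 0.83, 6.92 ± 0.81 and 4.68 ± 0.35. Ang4 differed there by -5.22 ± 0.59, beside -5.01 ± 0.59 in WT.

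**Figure D5:**
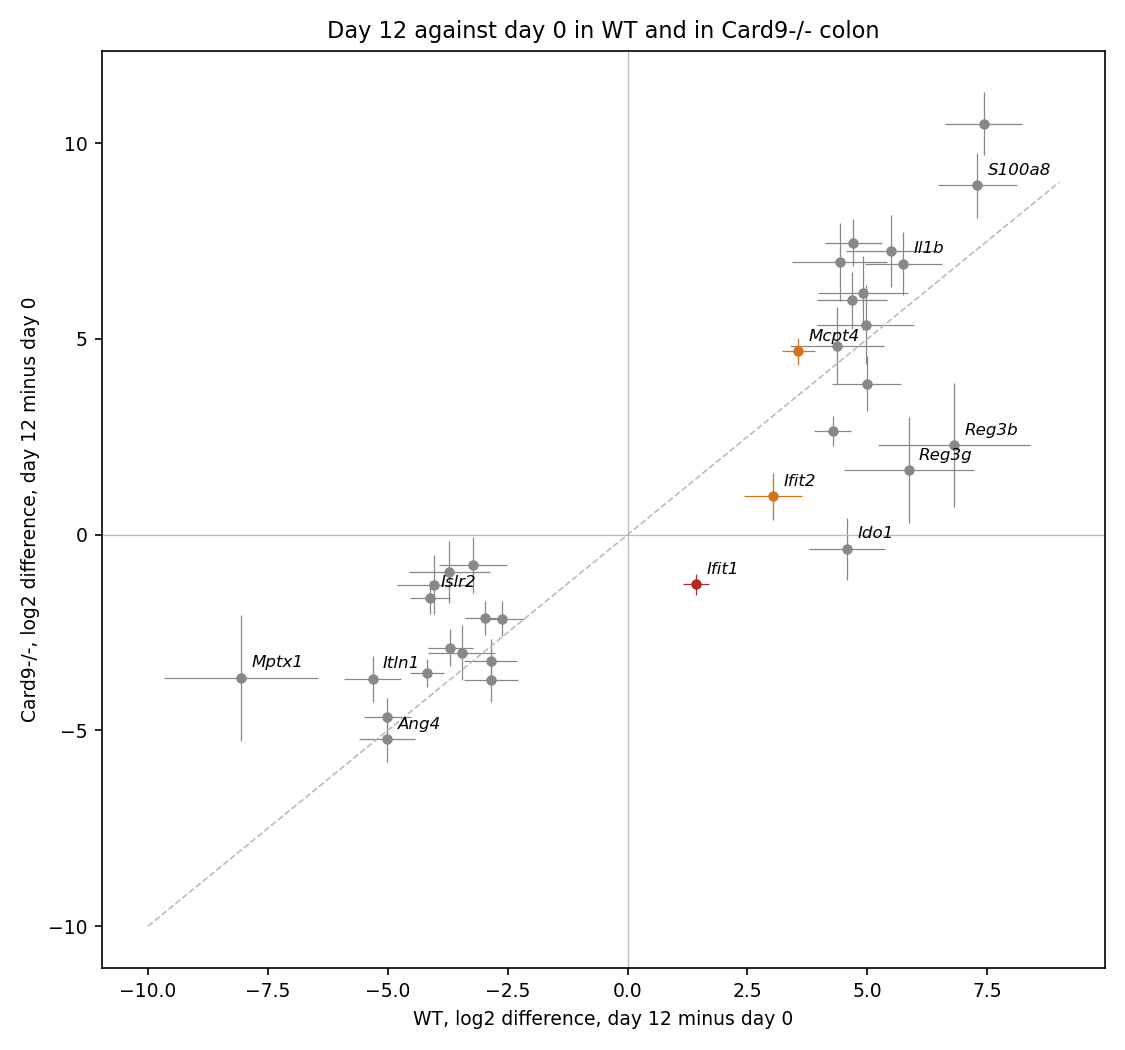
Log2 difference, day 12 minus day 0, in the arrays labelled WT (x axis) and Card9-/- (y axis) for the 15 largest WT rises, the 15 largest WT falls, Ifit1, Ifit2 and Mcpt4, with the standard error of each. The dashed line marks equal change. Ifit1 (red) lies at 1.43 and -1.27, and S100a8, Il1b and Ang4 have the same sign in both.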

How the data were processed

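Total RNA of each colon was labelled with Cy3 and hybridised to 1-colour Agilent arrays, 25 in all. The authors deposited 1 scanner file per array, whose processed intensity was background-subtracted and detrended within the array by Agilent Feature Extraction 10.7.3.1, per the file headers. They also deposited a table of log2 values of the same arrays, with a normalization that no label or header names, used as an alternative. Groups were taken from the titles.

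From the intensities, log2 values minus the array's 75th percentile over non-control spots were computed, without outlier spots. The 36427 probes well above background on at least 3 arrays were tested, with 25561 gene names, each by its brightest probe. Probes were named by RefSeq accession (27617 probes), otherwise by a RefSeq symbol or synonym (3680), and otherwise by the name in the array file (24384). Matches on another chromosome, 50 in all, were refused. Probe positions are on mm9. limma 3.58.1 in R 4.3.3 was fitted to all 25 arrays as 6 group means (lmFit, eBayes), with Benjamini-Hochberg adjustment, and the calls use an adjusted p under 0.05. Adjusted p-values in the text are from this fit unless another setting, an array left out or all probes is named beside them. The fit was also tested on simulated data with independent normal noise, which held no array like day 12 replicate 5. The n is 5 day 12 and 3 day 0 arrays, and these numbers limit the precision.

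A gene with every array of a group not well above background has a bound in place of a fold: the bright group's mean against the lowest signal well above background on the dim arrays or the gene's own signal, whichever is higher. The genes named are the 15 largest rises and 15 largest falls among symbols that passed the test with no overlap, up to 6 called members of each of 51 lists, and Card9. Ccl4, Fut2, Gfi1b, Il1r2 and Krt36, called members beyond those 6, markers given with no call, second probes and the genes set beside day 7 or the other genotype were chosen after their values were seen. The result of 1 list gene is not reported here. The lists and comparisons were chosen with earlier results of these data known. Other background corrections, normalizations, filters, blocks, sample sets, covariates and arrays left out were tried. The labels do not say that replicate numbers pair samples. Deviations of same-numbered arrays correlated at -0.05, 0.11 and 0.04, where all pairs of a day 12 and a day 0 array ran from -0.16 to 0.14. These few values cannot show whether samples were paired.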

Additional observations from a re-analysis of the deposited data

Results flagged for a closer look

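Within the 5 WT day 12 arrays, the level of 8 of 139 genes and the mean of 2 of 51 lists had 1 array far from the other 4, by a test that chance passes in about 1 of 20 groups. Replicate 5 stood apart at 37419 probes well above background, at a log2 level of -2.93 for Card9, at -2.33 for Gpam and at 1.33 above the day 0 mean for the eosinophil and type 2 list. Replicate 2 stood apart at 5.37 for Epcam, 0.55 for Rdh10 and 3.62 for Slc16a3. Replicate 4 stood apart at 4.93 for Oasl1 and 5.27 for Sdha. Replicate 3 stood apart at 3.67 for Slc26a3 and at -0.17 for the mean of the epithelium list. The change of Ifit1 was greater in the arrays labelled WT than in those labelled Card9-/- by 2.70 (limma adjusted p = 0.0156).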

How the results depend on the processing

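The 436 calls (286 rises, 150 falls) became 288 with normexp (172 rises), 192 in the 13 WT arrays (123 rises, 69 falls) and 2674 with array weights (1472 rises, 1202 falls, a share of rises of 55% against 65.6%). With no filter on dim probes 189 genes rose, and the median of all genes moved to 0.11. In the 8 arrays alone 245 fell, and with the proximal colon covariate 267 fell. With the replicate number as a block 288 genes were called, 177 of them rises, although the labels do not say that the numbers pair the samples. Leaving out 1 array gave 112 to 365 calls, 63 to 233 rises and 44 to 132 falls. The other planned settings gave 294 to 646 calls, and those added after seeing the data gave 311 and 377.

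The count of genes that differed between genotypes was 1, or 2 with normexp, 3 with the filter at 13 arrays, 4 with the trended robust prior, 2217 with array weights, 0 with the slide as a block and 0 with the proximal colon covariate. Leaving out 1 WT array gave 0 to 3. At an unadjusted p under 0.05 the main count was 1743. Card9, which was not called, changed sign to -0.16 with array weights, -0.39 without replicate 5 (also in the 2 groups alone) and -0.50 without it and with the covariate, in a range of -0.39 to 0.59 over the arrays left out. The cause was not tested. Genes near background on all arrays are limited by signal, and 5 against 3 arrays limits every test.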
